A study of Saccharomyces cerevisiae with 8 samples.

Results

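The genes that take sulphate into methionine and S-adenosylmethionine were followed in budding yeast (Saccharomyces cerevisiae) as it went through a hydroxyurea arrest and out of it. The genes are taken by name, as steps of the pathway, and were picked with earlier results of these data known. The set holds 10 of the 6547 features in the deposited table: MET3, MET14, MET16, MET10, ECM17, MET17, MET2, MET6, SAM1 and SAM2. ECM17 is another name of the gene that the R64 annotation lists as MET5. All 10 had a value in every library and all 10 passed the filter on low values, as did 6504 features in all.

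The strains were a mec1 mutant (strain WFA73, genotype mec1) and a wild type (WT, strain WFA72). MEC1 encodes the checkpoint kinase that corresponds to human ATR, and the labels give neither the mutant allele nor a suppressor mutation. Hydroxyurea blocks ribonucleotide reductase and so starves replication forks of deoxyribonucleotides. Alpha factor, a mating pheromone, held both strains in G1 (G1), and they were then released into 200 mM hydroxyurea for 1 h (HU). Cells were afterwards filtered into fresh medium without the drug for 30 min (R30) or 60 min (R60). The 8 mRNA libraries are 1 per strain and time, without replicates, and no value below can be set against a spread between cultures.

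Yeast makes its sulphur amino acids from inorganic sulphate. Sulphate is activated to adenylyl sulphate, phosphorylated, reduced to sulphite and then to sulphide, and sulphide is joined to a carbon chain made from homoserine to give homocysteine. Methylation of homocysteine gives methionine, and methionine plus ATP gives S-adenosylmethionine, the methyl donor of the cell. The pathway is known for its shared control: the activator Met4 binds no DNA by itself and reaches the promoters through Cbf1, which binds CACGTG, and through Met31 and Met32, which bind CTGTGG. When S-adenosylmethionine and cysteine are plentiful, the ubiquitin ligase subunit Met30 shuts Met4 off.

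CACGTG is the sequence that Cbf1 binds, so the stretch around the CACGTG nearest to the start codon is shown here for the members that have one within 500 bases before it. Capitals mark CACGTG, and each stretch is printed 5′ to 3′ on the strand of the gene, as 60 bases of the R64 genome (RefSeq).
MET3: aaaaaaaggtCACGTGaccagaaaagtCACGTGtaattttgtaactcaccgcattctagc
MET14: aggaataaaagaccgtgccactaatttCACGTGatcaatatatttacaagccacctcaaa
MET16: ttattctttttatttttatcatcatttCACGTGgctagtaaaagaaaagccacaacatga
MET10: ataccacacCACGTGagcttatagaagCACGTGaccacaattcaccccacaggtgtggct
ECM17: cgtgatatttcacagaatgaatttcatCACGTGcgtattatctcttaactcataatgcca
MET17: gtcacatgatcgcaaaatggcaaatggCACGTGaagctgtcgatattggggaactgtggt
MET2: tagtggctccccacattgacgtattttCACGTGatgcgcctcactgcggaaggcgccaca
MET6: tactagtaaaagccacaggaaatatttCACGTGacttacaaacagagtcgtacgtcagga
SAM2: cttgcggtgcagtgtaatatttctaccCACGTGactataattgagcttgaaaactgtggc

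In order, these lie at chrX:455852-455911 (+), chrXI:439581-439640 (-), chrXVI:877778-877837 (-), chrVI:213054-213113 (+), chrX:683557-683616 (-), chrXII:732215-732274 (+), chrXIV:116969-117028 (+), chrV:342630-342689 (-) and chrIV:1454755-1454814 (-). The first base of the capitals nearest to the start codon lies 178 bases before it in MET16, the closest, and 495 bases before it in MET6, the farthest. CACGTG was found in that window in 9 of the 10 members, and in 6.23% of the 6000 R64 genes searched. SAM1 was the member without it. ECM17 has another CACGTG 333 bases before its start codon. The left edge of the printed stretch cuts that match, so it is not in capitals. CTGTGG, searched on both strands, was found in 6 of the 10 (MET3, MET10, MET17, MET6, SAM1 and SAM2) and in 13.2% of the genes. TGACTC, the core recognised by Gcn4, the activator of amino acid synthesis, was found in MET16, ECM17 and MET6, 3 of the 10, and in 12.7% of the genes. Matches to the different motifs do not overlap in these promoters, and a match of letters is not a measurement of binding.

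The values are RPM (reads scaled to a common library total), and each is a mean over several windows: the gene's body, the 1000 bp on either side, and the flanks of neighbours that reach it. Members had 4 to 8 such windows. RPM here is not divided by length, so values are set against each other between libraries and not between genes. Because a neighbour's reads can enter, results are also given, where it bears on them, in forms computed from the deposited means and SDs. One is the range in which the gene's highest window must lie, and the other is the value of the gene body with neighbours separated (the separated value). The highest window can itself be one that a neighbour fills, so its range does not exclude neighbours' reads. For MET16 in mec1 G1 it lay between 199 and 342 RPM, against a separated value of 47.1 RPM. If the scale is RPM, it rested on 1596132 (WT HU) to 3935979 (mec1 G1) reads per library. MEC1 was higher in mec1 than in WT at all 4 times, with 77.1, 124, 83.9 and 76.6 RPM in mec1 and 36.2, 90.3, 35.7 and 38.7 RPM in WT, and with separated values of 81.9 to 96.4 RPM in mec1 and 12.9 to 22.6 RPM in WT. The mutant label is thus not matched by a lower MEC1 level, and since no allele is given the gene does not check which libraries are mutant. HUG1, a gene the checkpoint induces, had 37.7 RPM in mec1 HU and 445 RPM in WT HU. Strain names are those of the labels throughout, and every direction between the strains rests on them. The a-cell markers fitted cells that answer alpha factor: STE2, the receptor for it, had 199 to 864 RPM, while STE3, the receptor of alpha cells, had 3.38 to 10.9 RPM. Of the other alpha-cell genes, MF(ALPHA)1 and MF(ALPHA)2 stayed at or under 15.8 RPM and SAG1, an agglutinin gene, had 30.1 to 104 RPM.

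**Figure D1:**
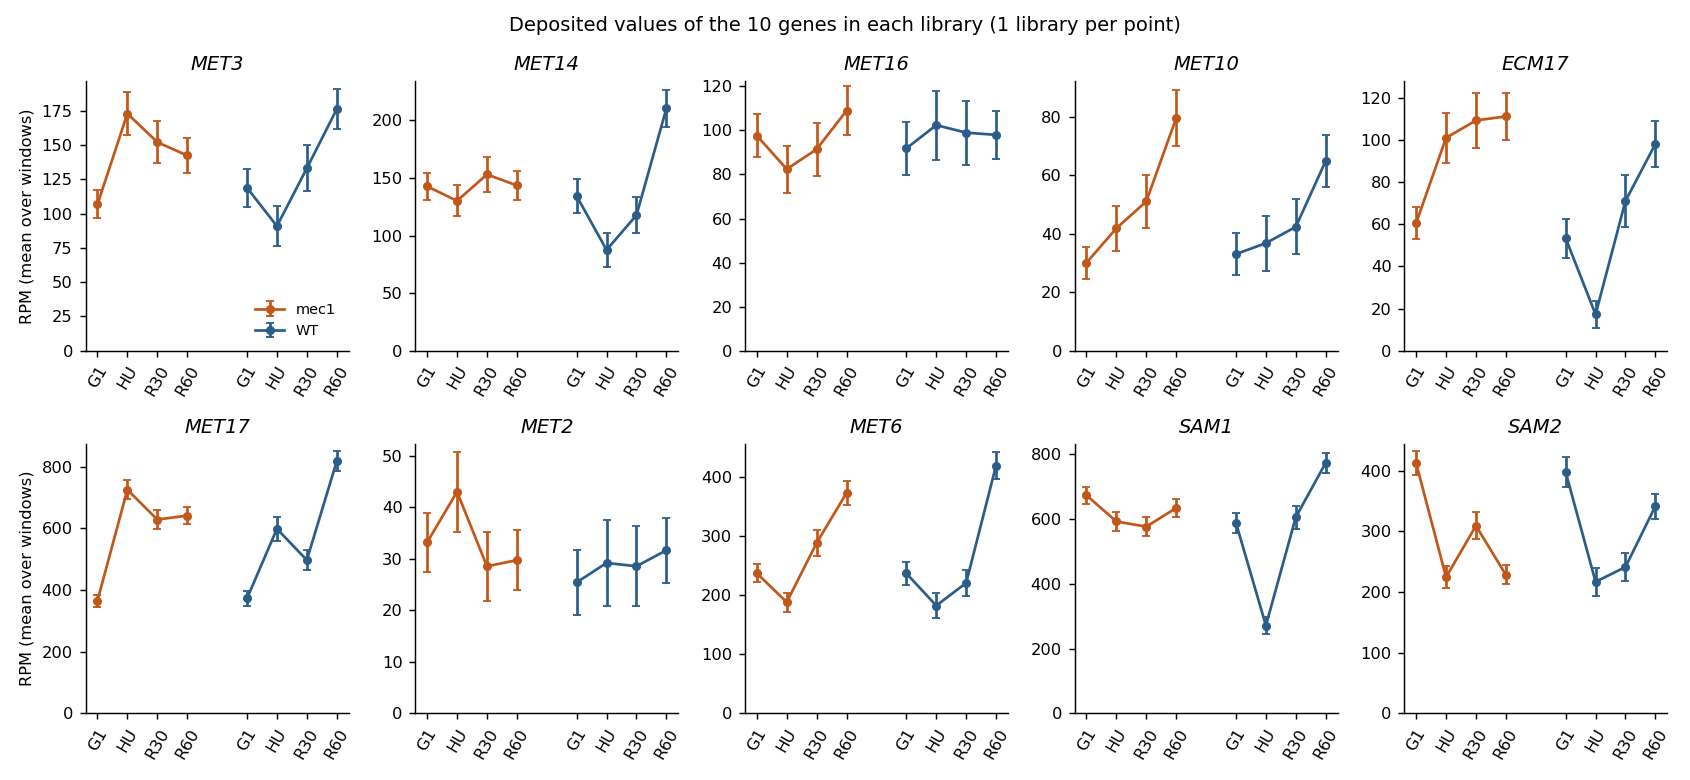
RPM of each of the 10 genes (vertical axis, from 0, own scale per gene) at G1, HU, R30 and R60 in mec1 (orange) and WT (blue). Points are single libraries and bars are 95% intervals for counting error only. ECM17, SAM1, MET3 and MET14 are lowest in WT HU, and SAM2 is highest in G1 in both strains.

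MET3 encodes ATP sulphurylase, which activates sulphate (chromosome X, 456239 to 457774 in R64). In the order G1, HU, R30 and R60, used for all genes, MET3 had 107, 173, 152 and 142 RPM in mec1, against 119, 90.8, 133 and 176 RPM in WT. HU was the highest of the mec1 libraries and the lowest of the WT libraries. In bulk RNA, fewer cells with a transcript and less transcript per cell cannot be told apart, nor can the drug be told apart from the release out of pheromone and G1. Between single libraries, HU minus G1 was 0.69 in mec1 (95% interval 0.50 to 0.88) and −0.38 in WT (−0.67 to −0.10), as log2 differences of RPM + 1. These intervals, like all others between single libraries here, cover counting error only and are no test. In HU the highest MET3 window lay between 259 and 417 RPM in mec1 and between 128 and 207 RPM in WT, ranges that do not overlap. The separated values of MET3 in HU were 381 RPM in mec1 and 168 RPM in WT.

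MET14 encodes the kinase that phosphorylates adenylyl sulphate (chromosome XI, 438777 to 439385 in R64). The deposited feature spans 438420 to 439028, a start 357 bp lower. If reads were placed by R64 coordinates, its body window covers only part of the gene. MET14 had 143, 130.1, 153 and 143 RPM in mec1, against 134, 87.6, 118 and 210.3 RPM in WT. The 4 mec1 libraries lay within a narrow band, and the WT libraries included both the lowest value (HU) and the highest (R60). In WT, HU minus G1 was −0.61 (95% interval −0.89 to −0.33) and R60 minus R30 was 0.83 (0.61 to 1.05). In mec1 the same differences were −0.13 (−0.32 to 0.06) and −0.09 (−0.29 to 0.10).

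MET16 encodes the reductase that turns the phosphorylated compound into sulphite (chromosome XVI, 876847 to 877632). MET16 had 97.7, 82.4, 91.4 and 108.9 RPM in mec1, against 91.8, 102, 99.0 and 98.0 RPM in WT. This is the least variable member, but much of its signal belongs to neighbours. It shares windows with RHO1 and JIP5, which have 389 to 650 and 116 to 296 RPM once separated. The separated MET16 value was 47.1, 66.7, 71.9 and 100.3 RPM in mec1, against 49.3, 92.7, 83.3 and 92.6 RPM in WT. On that measure MET16 was lowest in G1 in both strains, while in deposited values G1 was the lowest library in WT only.

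Sulphite reductase, which makes sulphide, is built from a flavin subunit encoded by MET10 (chromosome VI, 213312 to 216419) and a subunit that carries siroheme, encoded by ECM17 (chromosome X, 678957 to 683285). Both genes were highest in R60, but HU set them apart. ECM17 had 60.5, 100.9, 109.1 and 111.1 RPM in mec1, against 53.4, 17.2, 71.0 and 98.0 RPM in WT. WT HU stood far below the other 7 libraries, and it rests on 27.5 reads per window on average. MET10 had 30.1, 41.9, 51.1 and 79.6 RPM in mec1, against 33.1, 36.8, 42.4 and 65.0 RPM in WT. The MET10 value was higher at each later time in both strains, with R60 the highest in each, but not every step was clear of counting error. The 95% interval included 0 for HU minus G1 in WT (0.15, −0.32 to 0.62). It also included 0 for R30 minus HU in mec1 (0.28, −0.08 to 0.64) and in WT (0.20, −0.28 to 0.68).

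The strains differed more in ECM17 in HU than in any other member at any time. mec1 minus WT in HU was 2.48 (95% interval 1.95 to 3.02), a 5.59-fold higher value in mec1. HU minus G1 was 0.73 in mec1 (0.48 to 0.97) and −1.58 in WT (−2.14 to −1.01), and the mec1 change minus the WT change was 2.30 (1.69 to 2.92). That difference was above 1 for 2 of the 10 genes, ECM17 and MET3 (1.08, 0.73 to 1.42), beside 4.89% of all features. The highest ECM17 window in HU lay between 204 and 278 RPM in mec1 and between 25.1 and 37.4 RPM in WT. With neighbours separated, ECM17 had 279 RPM in mec1 HU and 25.9 RPM in WT HU, so the gap was wider than in the deposited values. The gap was small in G1 at 0.18 (−0.12 to 0.48), was 0.61 in R30 (0.31 to 0.91) and was 0.18 in R60 (−0.04 to 0.39). MET10 showed mec1 minus WT in HU of 0.18 (−0.26 to 0.62).

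**Figure D2:**
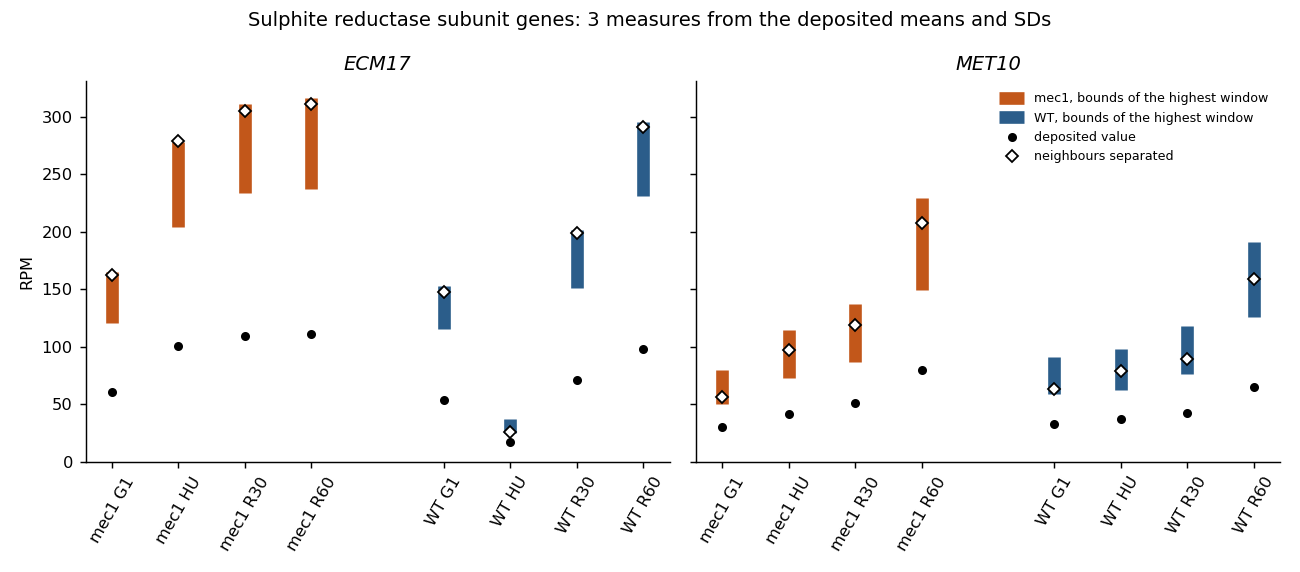
RPM (vertical axis, from 0) of the sulphite reductase subunit genes ECM17 and MET10 in the 8 libraries. Bars span the range in which the highest window must lie (orange mec1, blue WT), dots are deposited values and diamonds are values with neighbours separated. For ECM17 in HU the bars run from 204 to 278 RPM in mec1 and from 25.1 to 37.4 RPM in WT.

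MET17 encodes the enzyme that joins sulphide to O-acetylhomoserine to give homocysteine (chromosome XII, 732542 to 733876). MET17 had 366, 726, 629 and 642 RPM in mec1, against 373, 599, 497 and 817 RPM in WT. G1 was the lowest library of each strain, below every library taken after release. The highest MET17 window lay between 1588 and 2494 RPM in HU and between 811 and 1268 RPM in G1 in mec1. In WT it lay between 1345 and 2093 RPM in HU and between 818 and 1284 RPM in G1. Neither pair of ranges overlaps. Its neighbour ACO1 lies 1336 bp away, outside the windows of MET17, but YLR302C overlaps the gene, and its separated value ran from 0 to 350.6 RPM. In separated values, HU minus G1 of MET17 was 0.58 in mec1 and 0.57 in WT.

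MET2 encodes the acetyltransferase that makes O-acetylhomoserine (chromosome XIV, 117349 to 118809). MET2 had 33.2, 43.0, 28.6 and 29.8 RPM in mec1, against 25.4, 29.2, 28.6 and 31.7 RPM in WT. Its 8 windows take in YNL276C, which overlaps it, and BOR1, and the separation put the MET2 body at 0 in 7 of the 8 libraries, so the MET2 level itself was not resolved. MET6 encodes methionine synthase, which needs no cobalamin in yeast (chromosome V, 339864 to 342167). MET6 had 237, 188, 288 and 373 RPM in mec1, against 237, 182, 221 and 419 RPM in WT. In both strains HU was the lowest library and R60 the highest, and in G1 and HU the strains gave nearly the same value.

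SAM1 and SAM2 encode the S-adenosylmethionine synthetases (chromosome XII, 515262 to 516410, and chromosome IV, 1453310 to 1454464). Their coding sequences were identical at 956 of 1155 aligned positions (82.8%), and no 75-base stretch of either coding sequence, the length of 1 read, occurred elsewhere in the R64 genome. SAM1 had 672, 591, 575 and 633 RPM in mec1, against 586, 271, 604 and 772 RPM in WT. WT HU was the lowest library by a wide margin. SAM2 had 413, 225, 309 and 229 RPM in mec1, against 398, 217, 241 and 342 RPM in WT. SAM2 was highest in G1 in both strains and had nearly the same value in both strains in HU.

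The paralogs stood apart in HU. For SAM1, mec1 minus WT in HU was 1.12 (95% interval 0.97 to 1.28), against 0.05 (−0.14 to 0.24) for SAM2. For SAM1, HU minus G1 was −0.18 in mec1 (−0.27 to −0.10) and −1.11 in WT (−1.27 to −0.96). For SAM2 the same difference was −0.87 in mec1 (−1.01 to −0.74) and −0.87 in WT (−1.05 to −0.70). The highest SAM1 window in HU lay between 696 and 1090.0 RPM in mec1 and between 318 and 498 RPM in WT. In separated values, mec1 minus WT in HU was 1.14 for SAM1 and 0.16 for SAM2. In R60 both genes were lower in mec1, where mec1 minus WT was −0.29 for SAM1 (−0.37 to −0.20) and −0.58 for SAM2 (−0.71 to −0.45).

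The time comparisons over both strains asked which genes moved alike in mec1 and WT. From G1 into HU, 1 of the 10 genes rose and none fell: MET17 was higher by 0.83 on the log2(RPM + 1) scale (SE 0.18, adjusted p = 0.0391, limma with Benjamini-Hochberg adjustment over 6504 features). Of all features, 9.09% were called in this comparison, 4.57% as higher and 4.52% as lower, so 1 of 10 is near the background. SAM2 came next with −0.87 (SE 0.21, adjusted p = 0.0515, limma). SAM1 had −0.65 (SE 0.31), and ECM17 had −0.42 with the widest error (SE 0.53), since its strains moved in opposite directions. The median change of the 10 was −0.20, beside −0.02 for all features, and 6 of the 10 were negative, beside 3420 of all 6504 features. Without WT HU the median of the 10 was 0.13. The MET17 call was lost in 6 of 8 fits that left out 1 library. It was also lost with neighbours separated (0.57, SE 0.10, adjusted p = 0.0976, limma), a setting in which far fewer of all features were called. Whether neighbours' reads made the MET17 call was not tested.

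Within single strains, 2 of the 10 genes, ECM17 and SAM1, were lower by more than 1 on the log2 scale in WT HU than in WT G1, beside 3.11% of all features. SAM2, at −0.87 in WT, was −1.06 in separated values. None of the 10 was lower by more than 1 in mec1, beside 2.31% of all features. None was higher by more than 1 in mec1 HU or in WT HU, beside 4.7% and 4.5% of all features. MET17 in mec1, at 0.99 (95% interval 0.89 to 1.08), was the nearest to 1 on the higher side, but in separated values it was 0.58, below MET3 (0.80), MET10 (0.78) and ECM17 (0.77). ECM17 and MET3 moved in opposite directions in the strains with both intervals clear of 0, which was so of 3.51% of all features.

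**Figure D3:**
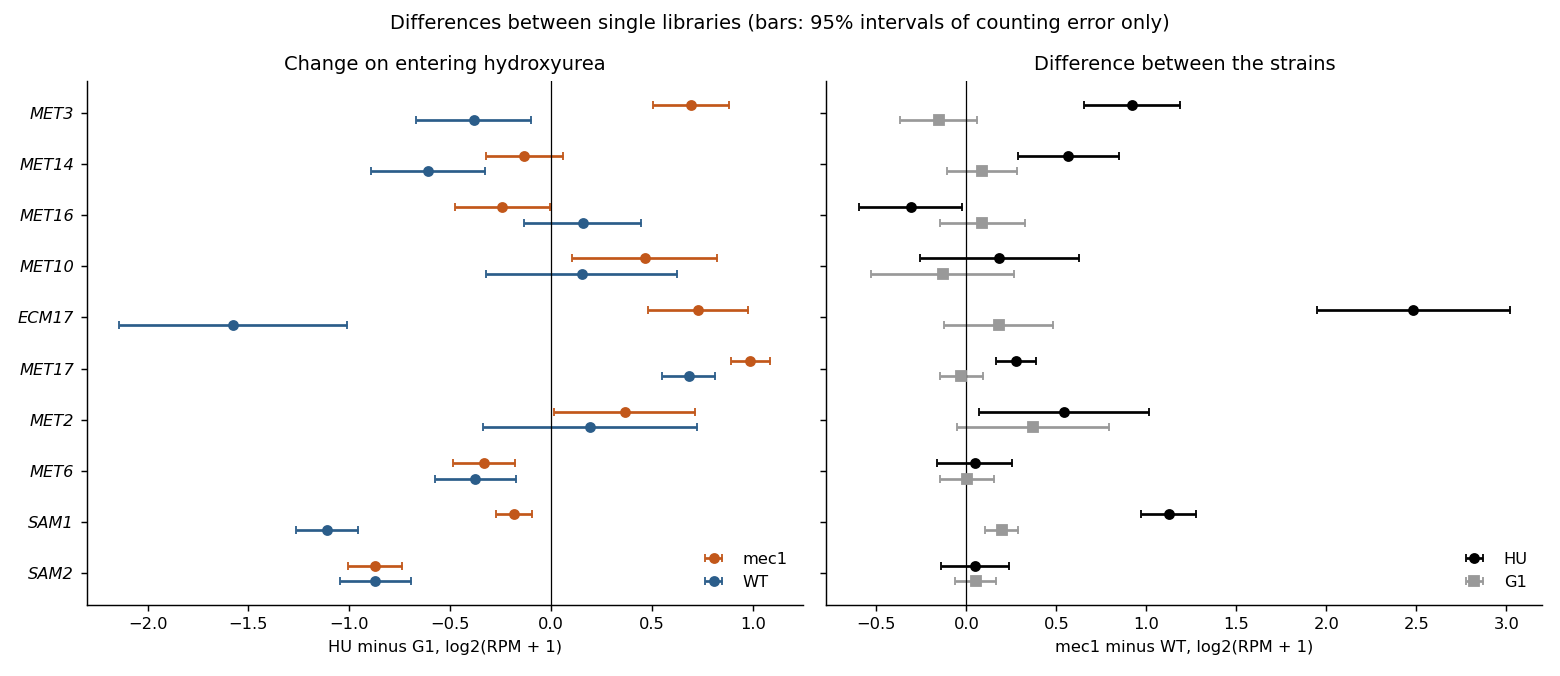
Left, HU minus G1 in mec1 (orange) and WT (blue); right, mec1 minus WT in HU (black circles) and G1 (grey squares), for the 10 genes as differences of log2(RPM + 1). Bars are 95% intervals for counting error only. ECM17 lies at 2.48 and SAM1 at 1.12 in HU, and the G1 differences lie between −0.15 and 0.37.

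ECM17 and SAM1, low in WT HU, were higher again in WT within 30 min of the removal of the drug. In WT, R30 minus HU was 1.98 for ECM17 (95% interval 1.42 to 2.55) and 1.16 for SAM1 (1.00 to 1.32), so 2 of the 10 were higher by more than 1, beside 1.52% of all features. This difference, HU minus G1 in WT and mec1 minus WT in HU all use the single WT HU library. They are therefore not separate results for these genes, which were named for a low value in that library. In mec1, where neither gene had been low, the same differences were 0.11 (−0.13 to 0.35) and −0.04 (−0.14 to 0.06), and none of the 10 was higher by more than 1, beside 1.34% of all features. MET6 was higher in R30 than in HU by 0.61 in mec1 (0.45 to 0.78) and by 0.27 in WT (0.06 to 0.49). Over both strains, 0 of the 10 genes passed the adjusted test in R30 minus HU, beside 0.861% of all features, and 1 of the 10 (MET6, 0.44, SE 0.15) had an unadjusted p under 0.05 by limma, beside 16.8% of all features.

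From R30 to R60, all 10 fitted changes over both strains were positive, beside 3341 of all 6504 features. They ran from 0.03 (SAM2) to 0.65 (MET6), with a median of 0.24 beside 0.005 for all features. They include MET2, whose own level was not resolved. Within single strains, 7 of the 10 were positive in mec1 and 9 in WT, beside 3307 and 3288 of all 6504 features. No feature of the 6504 passed the adjusted test in limma, 0% of the background, and 261 (4.01%) had an unadjusted p under 0.05, among them MET6 and MET10. Without WT R60 the median of the 10 was −0.086. In WT, R60 minus R30 had a median of 0.48, and in mec1 the median was 0.04. In WT the largest were MET6 at 0.92 (95% interval 0.76 to 1.08) and MET14 at 0.83. In mec1, MET6 had 0.37 (0.24 to 0.50) and MET14 had −0.09. MET17 had 0.03 in mec1 (−0.06 to 0.12) and 0.72 in WT (0.61 to 0.83), but in separated values 0.27 in mec1 and 0.54 in WT. In mec1, MET10 had 0.63 (0.33 to 0.93), close to its 0.60 in WT. SAM2 moved in opposite directions, with −0.43 in mec1 (−0.58 to −0.29) and 0.50 in WT (0.34 to 0.66), which was so of 1.28% of all features.

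At the end of the series, R60 was set against G1. MET10 rose by 1.16 (SE 0.15, adjusted p = 0.0209, limma with Benjamini-Hochberg adjustment) and was the 1 gene of the 10 called, beside 1.58% of all features, or 0.661% as higher. Within strains, MET10 was higher by 1.37 in mec1 (95% interval 1.07 to 1.68) and by 0.95 in WT (0.59 to 1.32). It was the 1 gene of the 10 higher by more than 1 in mec1, beside 5.57% of all features, and MET17 at 1.13 (1.02 to 1.24) was the 1 in WT, beside 2.61%. In separated values MET10 was at 1.87 in mec1 and 1.32 in WT, and MET17 in WT was at 1.00, just under that line. The highest MET10 window lay between 149.8 and 229 RPM in R60 and between 50.4 and 79.6 RPM in G1 in mec1. In WT it lay between 126 and 191 RPM in R60 and between 58.7 and 91.3 RPM in G1. SMC2 lies 175 bp from MET10 and shares windows with it, with separated values of 123 to 176 RPM. MET17 at 0.97 (SE 0.18, adjusted p = 0.0622, limma) and MET6 at 0.74 (SE 0.15, adjusted p = 0.0789, limma) came next. Of the 10, 9 fitted changes were positive, beside 3394 of all 6504 features, and SAM2 was the exception at −0.53. The 9 include MET2 at 0.08, whose own level was not resolved. The median of the 10 was 0.41, beside 0.02 for all features. The MET10 call was lost in 5 of 8 fits that left out 1 library. It was also lost with neighbours separated (1.59, SE 0.17, adjusted p = 0.143, limma), the highest adjusted p among its alternatives. Far fewer of all features were called in that setting, and whether neighbours' reads made the MET10 call was not tested.

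The strain comparison over the 4 times asked whether mec1 and WT differed throughout. None of the 10 genes was called, beside 0.277% of all features, and none had an unadjusted p under 0.05 by limma, beside 27% of all features. ECM17 had the largest fitted difference, 0.86 higher in mec1 (SE 0.37, adjusted p = 0.194, limma with Benjamini-Hochberg adjustment). Fitted over 4 times, the strain term averages a gap that was seen at single times. The median mec1 minus WT of the 10 was 0.07 in G1, 0.41 in HU, 0.30 in R30 and −0.23 in R60, beside 0.06, 0.06, 0.13 and 0.10 for all features. In HU, 9 of the 10 were higher in mec1, beside 3728 of all 6504 features. For MET10, MET6 and SAM2 the counting interval included 0. MET17, at 0.28 in HU, was at 0.03 in separated values, and the MET2 level was not resolved. Higher by more than 1 were 2 of the 10, beside 5.18% of all features. MET3, at 0.92, was at 1.17 in separated values. In R60, 7 of the 10 were lower in mec1, beside 2539 of all 6504 features, and the counting interval of MET2 included 0. SAM2, at −0.58, and MET14, at −0.55 (95% interval −0.72 to −0.38), were the furthest below 0, in separated values too (−0.62 and −0.73). MET17 had −0.35 (−0.43 to −0.27), and −0.17 in separated values.

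How alike the 10 genes were was described by the correlation of each gene's log2(RPM + 1) with the mean of the 10 over the 8 libraries, which includes the gene itself. Pearson's r was 0.91 for MET14, 0.91 for ECM17, 0.88 for MET3, 0.84 for SAM1 and 0.83 for MET6. It was 0.74 for MET10 and 0.50 for MET17. It was low for SAM2 (0.18), and for MET2 (0.23) and MET16 (−0.06), whose deposited values hold many reads of neighbours. After centring each gene, the mean stood at −0.08, 0.06, 0.15 and 0.23 in mec1, against −0.15, −0.53, −0.09 and 0.40 in WT on the log2 scale. WT HU was the lowest library and WT R60 the highest. The 8 points share their libraries and depth, so these are descriptions and carry no test.

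The feature with the most similar pattern outside the set was MDG1, a gene known from pheromone signalling, at r = 0.96 over the 8 libraries among 1743 candidates. MDG1 had 45.9, 44.2, 52.8 and 54.3 RPM in mec1, against 44.6, 31.4, 42.8 and 71.5 RPM in WT. MTR2, an mRNA export factor, followed at r = 0.95 with 41.2, 50.04, 44.1 and 46.5 RPM in mec1, against 38.5, 24.6, 41.4 and 58.5 RPM in WT. YDR056C (r = 0.92) and YNL046W (r = 0.91) were also highest in WT R60 in deposited values. In separated values YNL046W was highest there too (179 RPM), but YDR056C had 130.2 RPM there and was highest in mec1 R30 (225 RPM). SOR1 (r = 0.93), a sorbitol dehydrogenase gene, had at most 2.26 RPM in any library.

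Another 47 genes of sulphur metabolism and its control were read beside the 10. From G1 into HU, 5 of the 47 rose, beside 4.57% of all features, and 3 fell, beside 4.52%. MET22, whose product removes the phosphorylated by-product of sulphate reduction, rose by 0.79 (adjusted p = 0.0383, limma). In the supply of methyl groups and homoserine, 3 of 8 genes rose: MET13, a methylenetetrahydrofolate reductase gene, by 0.94, HOM2 by 0.79 and HOM3 by 0.63. Among 9 genes of sulphur transport, SSU1 rose by 2.07 (SE 0.45, adjusted p = 0.0391, limma), and it encodes a sulphite pump that works outwards. The fitted change of SSU1 was 5.18 in separated values, where G1 was at 4.86 RPM in mec1 and 35.4 RPM in WT. SSU1 had 53.7, 161, 255 and 289.8 RPM in mec1, against 64.8, 388, 180.1 and 161 RPM in WT. HU was the highest library of WT and R60 the highest of mec1.

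Of the genes that fell, MMP1, which takes up S-methylmethionine, fell by 1.09 and MHT1, which uses it to methylate homocysteine, fell by 1.06. MMP1 had 39.8 RPM in mec1 HU against 92.4 RPM in mec1 G1, and 32.3 RPM in WT HU against 64.8 RPM in WT G1. SPE3, the spermidine synthase gene, fell by 0.64. None of 7 transsulphuration and glutathione genes passed the test in this comparison. None of 7 regulators (MET4, CBF1, MET28, MET31, MET32, MET30 and GCN4) passed it either. In these lists, 1 and 3 genes had an unadjusted p under 0.05 by limma, beside 31.2% of all features. MET31 had a separated value of 0 in every library, so its own level was not resolved. The fitted MET4 change was 0.44 in deposited values and −0.24 in separated values. From HU to R30, GSH1, which starts glutathione synthesis, fell by 1.12 (SE 0.17, adjusted p = 0.0434, limma), the 1 gene of the 47 called there, beside 0.861% of all features. In R60 minus R30, R60 minus G1 and mec1 minus WT, 0 of the 47 passed, while 2, 15 and 19 had an unadjusted p under 0.05 by limma (4.26%, 31.9% and 40.4%), beside 4.01%, 19.8% and 27% of all features.

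**Figure D4:**
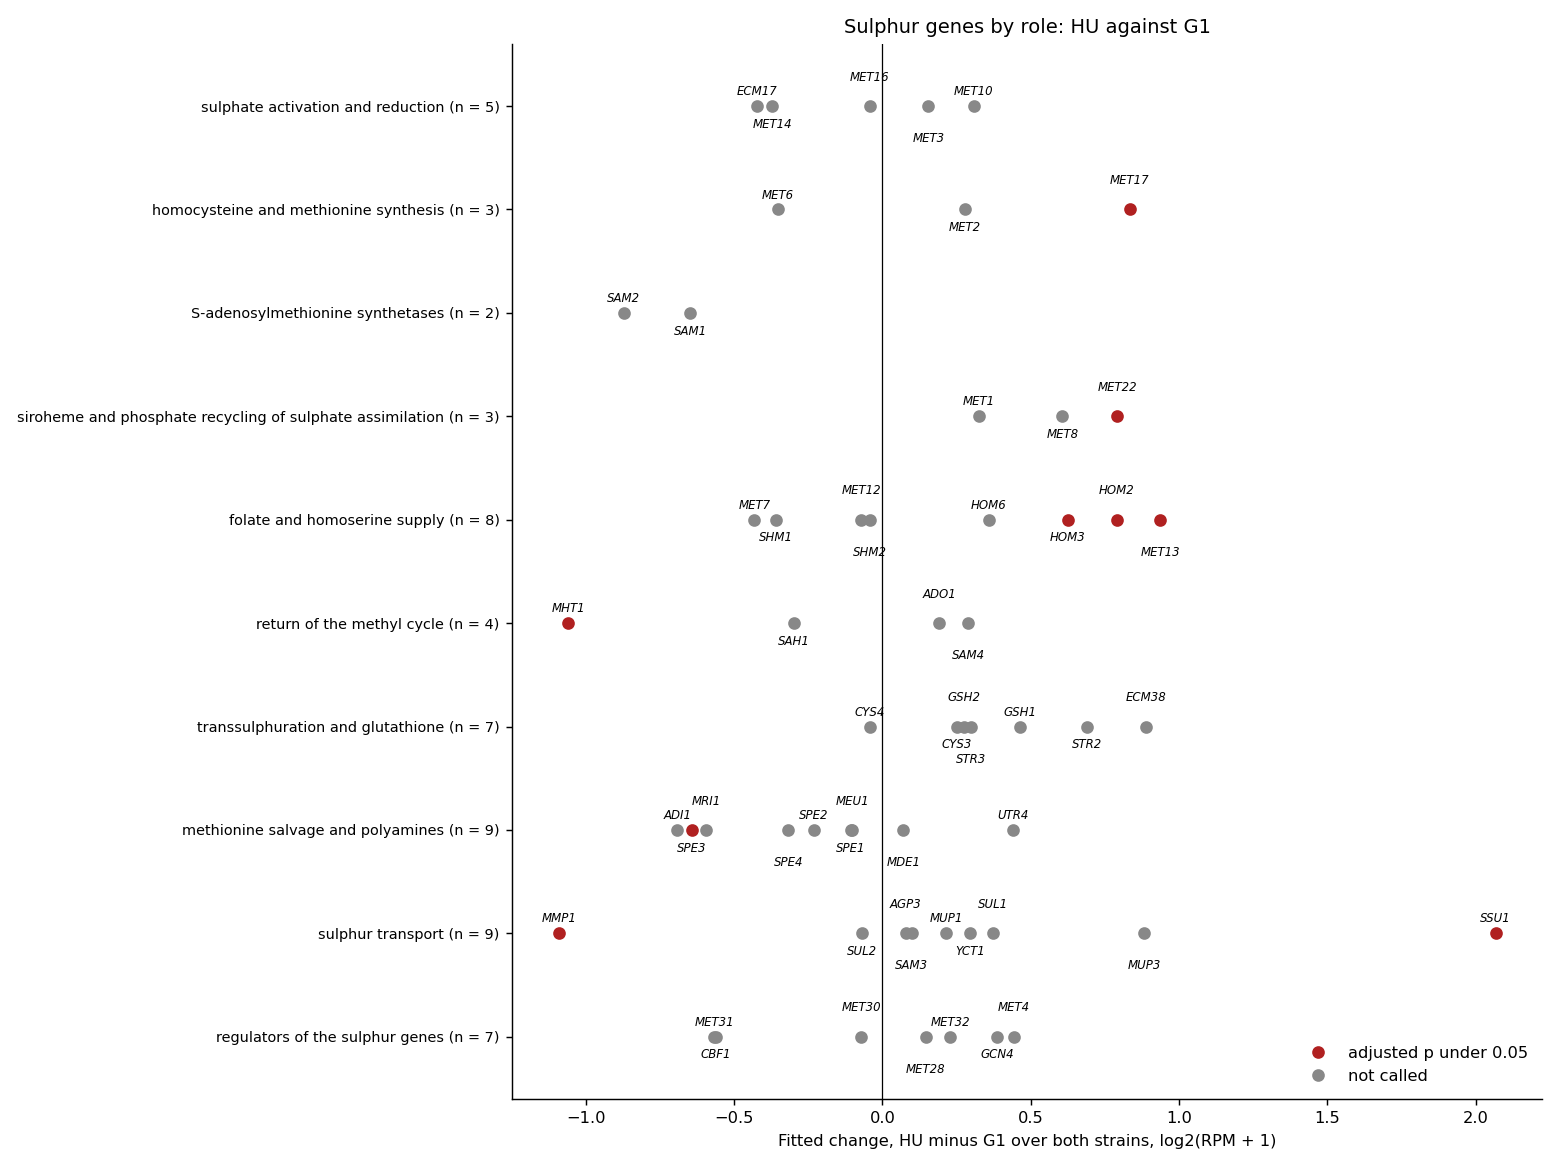
Fitted change over both strains in HU minus G1 (horizontal axis, log2(RPM + 1)) of the 10 genes, in the top 3 rows, and of the 47 other genes, by role. Red points passed the adjusted test and grey ones did not. MET17 at 0.83 is the red point among the 10, and SSU1 at 2.07 is the farthest to the right.

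In HU, 1 of the 47 was higher in mec1 than in WT by more than 1, beside 5.18% of all features, and 2 were lower, beside 1.51%. ADI1, an enzyme gene of methionine salvage, had 94.3 RPM in mec1 HU and 34.6 RPM in WT HU, a difference of 1.42 (95% interval 1.01 to 1.83). Like ECM17 and SAM1, ADI1 was lower in WT HU than in WT G1, with −1.38 (−1.80 to −0.97), while mec1 gave 0.00 (−0.23 to 0.23). In separated values ADI1 was lower in HU than in G1 in both strains, with −0.53 in mec1 and −2.13 in WT. SSU1 went the other way with −1.26 (−1.44 to −1.09), and so did ECM38, which breaks down glutathione, with −1.08 (−1.35 to −0.80). Their separated values differed by −1.57 and −0.94.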

How the data were processed

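mRNA libraries (TruSeq Stranded mRNA kit, per the labels' protocols) were aligned with BWA to sacCer3, per the submitters' processing notes; versions, counting tool and strand of counting are not given in the sources used here. The deposited header names log2 RPKM, but the deposited values are RPM: value times windows gave whole reads, within 0.01 reads, for 100% of features in all 8 libraries. The count of windows matched gene bodies plus 1000-bp flanks for 6326 of 6547 features (96.6%). Starts of the 10 members in the deposited values differ from R64 by −2 to 357 bp (R64 minus deposited). The offset was 357 bp in MET14, 86 bp in MET3 and 85 bp in ECM17, and its effect on the values was not tested. Sequences were read by R64's own annotation, and gene positions given above are those of R64 unless called deposited.

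Since values average overlapping windows, no count model was run. limma 3.58.1 in R 4.3.3 was fitted to log2(RPM + 1) with strain and time as additive terms and a mean-dependent prior variance, over all 8 libraries, on 6504 features (1 RPM or more in at least 2 libraries). Residual degrees of freedom were 3, with 3.82 from the prior; p-values are two-sided, Benjamini-Hochberg adjusted over all features and called under 0.05. They measure how evenly the strains moved, not the spread between cultures. Fold changes on this scale understate those of low genes. Differences between single libraries have 95% intervals from the mean reads per window (median 94.2 in WT HU to 256 in mec1 G1), which cover counting error only.

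Separation of neighbours used non-negative least squares over the windows, with assumed untranslated ends of 50 and 120 bp and fragments of 150 bp; predictions of the SDs it did not use were off by a median of 0.0375 to 0.0409 (log2). The range of the highest window follows from the mean and SD alone.

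The 10 genes and the lists were chosen with earlier results of these data known. All 10 are described; of the other 47, each gene called is named, up to 4 per list and contrast; similar patterns are the 5 highest correlations among features with a range of at least 1 (log2) lying over 5000 bp from every member. Genes named for single-library differences in HU were chosen after their values were seen. Alternatives covered the pseudocount, filter, scaling, prior, separation, libraries used and leaving out each library.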

Additional observations from a re-analysis of the deposited data

Results flagged for a closer look

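Over the time comparisons pooled, 4 of the 10 genes moved in opposite directions in the strains, with both counting intervals clear of 0. The pooled share over all features was not computed, so shares are given by comparison. Each strain and time is 1 library, so the difference was not tested. In HU minus G1, ECM17 had 0.73 in mec1 and −1.58 in WT, and MET3 had 0.69 in mec1 and −0.38 in WT (2 of 10, beside 3.51% of all features). In R60 minus R30, SAM2 had −0.43 in mec1 and 0.50 in WT (1 of 10, beside 1.28%). In R60 minus G1, SAM1 had −0.086 in mec1 and 0.40 in WT (1 of 10, beside 3.54%). Its interval in mec1, −0.17 to −0.004, nearly reached 0, and that in WT was 0.30 to 0.49. In R30 minus HU it was 0 of 10, beside 3.32%.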

How the results depend on the processing

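No called value of the 10 genes reversed: of their values under the alternatives, 766 kept their side of the threshold, 15 lost a call and 9 gained one. The number called in HU minus G1 went to 0 without the mean-dependent prior and to 0 with neighbours separated, and was 0 to 2 with 1 library left out. In R60 minus G1 it was 2 under quantile normalization, 3 with the 4 libraries of those times and 0 with neighbours separated, and 0 to 1 with 1 library left out. In R30 minus HU it was 0 to 1, in R60 minus R30 0 to 0 and in mec1 minus WT 0 to 0. Of all features, separation called 83 in HU minus G1, 7 in R30 minus HU, 1 in R60 minus R30, 8 in R60 minus G1 and 0 in mec1 minus WT, against 591, 56, 0, 103 and 18. The 4 libraries of the times compared called 227 in HU minus G1 and 17 in R30 minus HU, where leaving out the prior called 3. Leaving out 1 library gave 45 to 447, 1 to 45, 0 to 23, 22 to 118 and 7 to 672 calls in the same order of comparisons. The median change of the 10 in R60 minus G1 was 0.73 with neighbours separated. With 1 library left out it was −0.35 to 0.13 in HU minus G1, 0.00014 to 0.39 in R30 minus HU, −0.086 to 0.56 in R60 minus R30, 0.22 to 0.79 in R60 minus G1 and 0.01 to 0.25 in mec1 minus WT. The cause was not tested.

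Without mec1 HU, the HU time is WT HU alone, so its fitted changes follow that 1 library. ECM17 then had −1.50 in HU minus G1 and 2.13 in R30 minus HU, and SAM1 had −1.24 in HU minus G1. Where a fit leaves 1 library at a compared time, a call cannot measure how evenly the strains moved. The counts of calls with 1 library left out include such fits. SAM2 in HU minus G1 was called without WT R60 or without mec1 R60 (adjusted p = 0.0238 and 0.0227, limma). MET17 in HU minus G1 also lost its call without the prior (adjusted p = 0.0571, limma) and on 4 libraries (0.0565). With 1 library left out, it kept the call only without WT R60 or mec1 R60, and MET10 in R60 minus G1 only without WT G1, WT HU or mec1 HU. Equal medians or quantile normalization moved the median of all features in mec1 minus WT from 0.08 to −0.03, so the small strain differences of MET17 and MET6 are within that shift. The comparison mec1 minus WT was not run on 4 libraries. No paired analysis was possible because the labels carry no replicate numbers and each strain and time has 1 library; the strain term of the model already sets the times against each other within strains. WT HU, with 94.2 reads per window at the median, limits the precision of every difference that uses it.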
